A study of Mus musculus with 6 samples.

Results

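Proteoglycan core proteins, the enzymes that build and sulfate their glycosaminoglycan chains, and the proteins that organise hyaluronan were measured in 2 sorted cell populations of the embryonic mouse trachea, muscle and epithelium. The genes were taken by symbol from the deposited gene count table: the glypicans (Gpc), syndecans (Sdc), N-deacetylase/N-sulfotransferases (Ndst), heparan sulfate 2-O-, 3-O- and 6-O-sulfotransferases (Hs2st, Hs3st, Hs6st), carbohydrate sulfotransferases (Chst), hyaluronan synthases (Has), link proteins (Hapln), exostosins (Ext, Extl) and extracellular sulfatases (Sulf), with 5 large chondroitin sulfate proteoglycans and 6 small leucine-rich proteoglycans. This gave 64 genes of the 23478 in the table. The tracheas were dissected at embryonic day 13.5 from mice of the genotype Bmp4 f/f; gamma SMA eGFP, that is, with floxed alleles of Bmp4 and an eGFP reporter named for gamma smooth muscle actin. All 6 libraries share this genotype, all are titled controls and no Cre driver is named for any of them. Muscle cells were sorted by GFP and epithelial cells by an APC-labelled antibody to Epcam, with 3 libraries of each. The labels do not say how many embryos went into a library or whether libraries came from separate litters, so the p-values measure the spread between these libraries, which may be technical.

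A proteoglycan is a core protein that carries long sulfated sugar chains. Heparan sulfate chains sit mainly on glypicans, which are held in the membrane by a lipid anchor, and on syndecans, which span it, and they bind Wnt, Hedgehog, fibroblast growth factor and bone morphogenetic protein ligands in a way that depends on where the chain is sulfated. Chondroitin and dermatan sulfate chains sit mainly on secreted matrix proteins such as versican, biglycan and decorin, while hyaluronan carries no core protein and no sulfate. In the developing trachea, cartilage and the muscle layer are laid down in mesenchyme rich in such matrix around an epithelial tube.

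Markers of the sorted cell types separated the populations. All 9 smooth muscle markers were higher in muscle and all 10 epithelial markers in epithelium (adjusted p under 0.05, edgeR). The smooth muscle markers summed to between 4059 and 17456 CPM (counts scaled to 1000000 per library) in muscle and between 114 and 140 CPM in epithelium, and the lowest of the muscle libraries was muscle 2. Total counts ranged from 11847432 (epithelium 2) to 54848820 (epithelium 1). As a gauge of background, the 95th percentile of 1449 genes for olfactory or vomeronasal receptors lay between 0 and 0.152 CPM in muscle 1, muscle 3 and epithelium 1, and at 1.93, 3.52 and 1.39 CPM in muscle 2, epithelium 2 and epithelium 3. Of the 64 genes, 41 stood above the 99th percentile of the receptor genes in every library. Of markers of other cell types, 5 of 12 cartilage genes were higher in muscle, where they summed to between 1194 and 1967 CPM against 377 to 737 CPM in epithelium. Within this list Matn1, which marks maturing cartilage, was at 0 in muscle 3 and at most 4.14 CPM in any library. Col9a2 was among the 5 that were higher in muscle, so the low level of Matn1 does not stand for the list. Endothelial markers (7 genes) summed to between 68.1 and 86.9 CPM in muscle and between 2.03 and 57.6 CPM in epithelium, with 1 of 7 higher in muscle. Immune, neural and glial, erythroid and mesothelial markers each summed to at most 62.8 CPM in every library, and none of them passed the test. The part of these cells in the results below was not tested.

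Of the 64 genes, 63 passed the filter on low counts. Chst9 did not, with 4 counts over the muscle libraries and 22 over the epithelial libraries. At the threshold of 0.05 on the adjusted p, 19 of the 63 were called toward muscle and 4 toward epithelium (edgeR quasi-likelihood test, p adjusted over all 19375 tested genes), which is 36.5% against 10.7% of all tested genes. In muscle the share was 30.2% against 6.58%, and in epithelium 6.35% against 4.11%. Calls varied with level: of the 30 whose average log2 CPM was 5 or more, 18 passed, where 17.7% of all tested genes of that level did. Of the 18 between 2 and 5, 5 passed, against 14.4%, and of the 15 below 2 none passed, against 0.0753%. None of those 15 had an unadjusted p under 0.05 in the main edgeR fit or passed with DESeq2 or limma-voom. At an unadjusted p under 0.05 (edgeR) there were 34 of the 63, and 4197 of the 19375 tested genes. In 35 of the 63 (55.6%) the groups did not overlap, against 26.9% of all tested genes. The median log2 fold change of muscle over epithelium was 0.79, beside -0.10 for all tested genes. The genes were chosen with earlier results of these data known, so these shares describe them and are no test.

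The counts of called genes moved with single libraries. Without epithelium 3 there were 14 (11 in muscle and 3 in epithelium), without muscle 3 there were 15 (12 and 3), and without muscle 1 there were 16 (14 and 2). Without epithelium 1 the epithelial calls were 2. The file header holds identifiers that were read as dates, although the header does not say that they are: day 3 of month 9 for muscle 2 and epithelium 2, and day 16 for the other 4 libraries. For muscle 3 and epithelium 3 the identifier is a number without separators, so their day is the less certain reading. Within the 4 libraries read as day 16, 29 genes were called (24 in muscle and 5 in epithelium), of which 21 were among the 23, against 17.6% of all genes tested there. Of the 23 genes, Hs2st1 (adjusted p = 0.12, edgeR) and Chst1 (0.059) did not pass within that day. Scaling by library size only moved the split to 14 in muscle and 6 in epithelium, and the median of all tested genes to -0.33. The plot of fold changes by family shows all 63 genes.

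**Figure D1:**
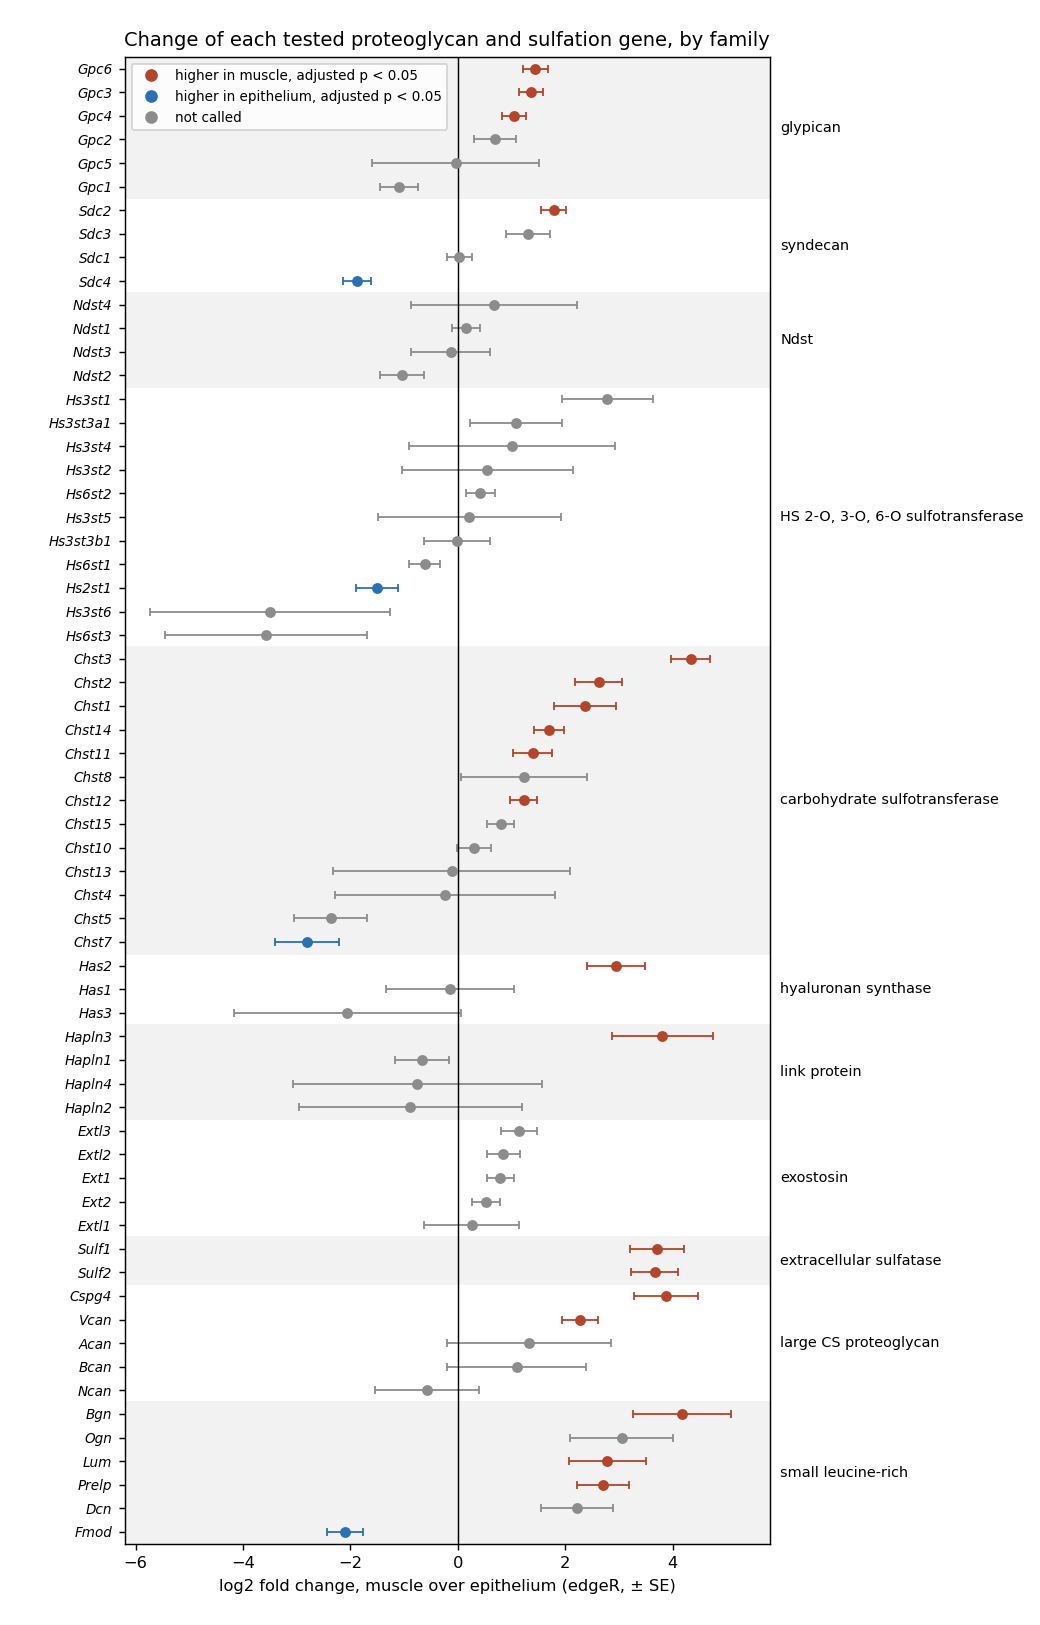
Log2 fold change of muscle over epithelium (x axis, edgeR, points with SE, n = 3 libraries per group) for the 63 tested genes, grouped by family, with genes higher in muscle in red, higher in epithelium in blue and not called in grey; HS is heparan sulfate and CS chondroitin sulfate. The 2 extracellular sulfatases and most of the called carbohydrate sulfotransferases lie to the right, while Sdc4, Hs2st1, Chst7 and Fmod are the 4 on the left that passed.

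Among the core proteins of the cell surface, the glypicans were higher in muscle in 3 of 6 cases and none passed toward epithelium. Gpc3, a growth regulator that binds Hedgehog and Wnt ligands (chrX:52272426-52613950, GRCm38), had 2542, 2527 and 2505 CPM in muscle 1 to 3 and 948, 1050 and 951 CPM in epithelium 1 to 3. The replicates of each group lay close together and the groups did not overlap, with a log2 fold change of 1.36 ± 0.22 (SE, adjusted p = 0.0052, edgeR). Without epithelium 3 its adjusted p was 0.0545. Per kilobase of exon, Gpc3 made up 90.4% ± 0.63 (SD, n = 3) of the glypican level in muscle and 84.9% ± 3.8 in epithelium, so it was the most abundant glypican in both. Gpc6 had 221, 237 and 275 CPM in muscle and 91.0, 79.8 and 99.6 CPM in epithelium (1.44 ± 0.23, adjusted p = 0.0044). Gpc4, whose gene is the neighbour of Gpc3 on the X chromosome with a gap of 107 kb, had 74.4, 94.1 and 83.5 CPM against 45.6, 37.1 and 39.2 CPM (1.05 ± 0.22, adjusted p = 0.017). Its call was lost without muscle 3 (0.058), epithelium 2 (0.061) or epithelium 3 (0.14).

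The other glypicans did not pass. Gpc1 had 49.1, 43.4 and 78.0 CPM in muscle and 181, 101 and 84.7 CPM in epithelium. All epithelial libraries were above all muscle libraries, and the log2 fold change was -1.10 ± 0.36 (adjusted p = 0.090, edgeR). It passed with DESeq2 (0.0043) and with scaling by library size (0.020). 18.9% of its exonic bases lie within Ankmy1 on the other strand, which counts without strand cannot tell apart. Gpc2 had 113, 54.7 and 75.7 CPM against 78.2, 31.4 and 41.2 CPM, and the groups overlapped. It shares 55.6% of its exonic bases with the annotated gene Gm43720. Gpc5 had 3.25 CPM or less in every library.

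Syndecans divided by member. Sdc2 (chr15:32920723-33034935), the syndecan typical of mesenchyme, had 318, 291 and 355 CPM in muscle and 82.8, 87.0 and 111 CPM in epithelium. The groups lay far apart, and muscle over epithelium the log2 fold change was 1.78 ± 0.24 (adjusted p = 0.0020, edgeR). Sdc4 (chr2:164424247-164443887), which takes part in focal adhesions, went the other way, with 36.1, 48.9 and 37.9 CPM in muscle and 173, 115 and 166 CPM in epithelium (-1.89 ± 0.26, adjusted p = 0.0023). Sdc1, the syndecan known from epithelia, had 267, 245 and 282 CPM in muscle and 295, 211 and 276 CPM in epithelium. The groups overlapped fully, and the difference was 0.02 ± 0.23 (adjusted p = 0.99). Sdc3 had 42.8, 56.2 and 79.5 CPM in muscle and 19.2, 39.8 and 13.7 CPM in epithelium. The groups did not overlap, but with epithelium 2 close to muscle 1 it did not pass (1.30 ± 0.41, adjusted p = 0.086), and without epithelium 2 it did (0.014).

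The members' shares of the family's level per kilobase of exon were as follows. Sdc2 made up 47.0% to 49.6% of the syndecan level in the muscle libraries and 13.6% to 18.7% in the epithelial ones. Sdc4 made up 7.33% to 10.9% in muscle and 34.2% to 39.5% in epithelium. Sdc1 held 36.5% to 38.6% and 42.0% to 45.0%. The summed level was 175 to 203 CPM per kb in muscle and 132 to 172 CPM per kb in epithelium. These shares are descriptions of 3 libraries each with no test.

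**Figure D2:**
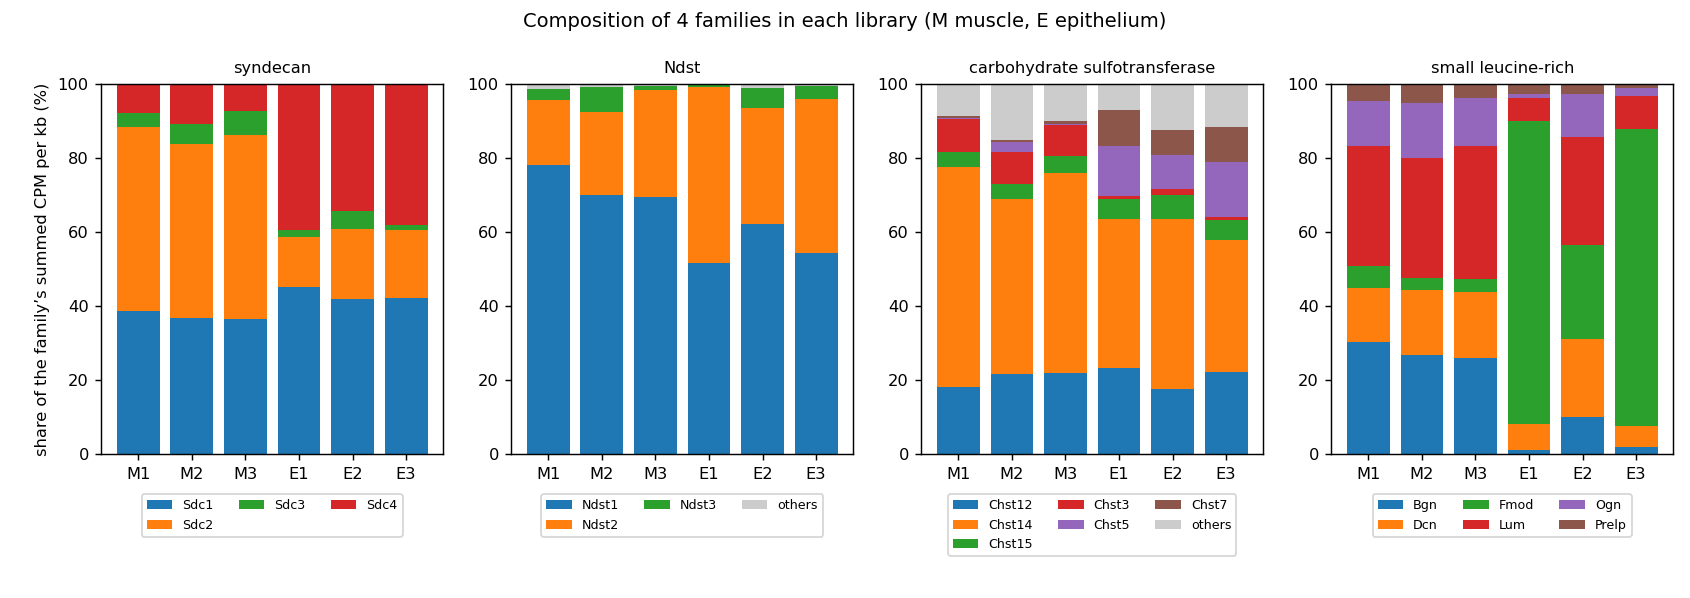
Share of each member in its family’s summed CPM per kilobase of exon (y axis, percent) in every library (x axis, M1 to M3 muscle, E1 to E3 epithelium), for syndecans, Ndst genes, carbohydrate sulfotransferases and small leucine-rich proteoglycans; members under 5% in every library are pooled as others. Sdc2 gives way to Sdc4 between muscle and epithelium, Ndst2 and Chst5 take a larger part in epithelium, and Fmod fills most of the small leucine-rich bar in epithelium 1 and 3 but 25.3% in epithelium 2.

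Heparan sulfate chains are polymerised by the exostosins Ext1 and Ext2, with Extl2 and Extl3 acting at the start of the chain. None of the 5 exostosin genes passed the test, although all 5 fold changes were positive and in 3 genes the groups did not overlap. With edgeR, 3 had an unadjusted p under 0.05, as had 4197 of the 19375 tested genes. Extl3 passed with DESeq2 (adjusted p = 0.0042) and with limma-voom (0.038). With the header date as a term, Ext2 (0.020), Extl2 (0.017) and Extl3 (0.013) passed. Ext2, with the highest mean level per kilobase in both populations, had 350, 245 and 371 CPM in muscle and 249, 179 and 242 CPM in epithelium (0.53 ± 0.26, adjusted p = 0.31, edgeR). Ext1 had 46.8, 44.2 and 69.4 CPM against 29.6, 34.4 and 29.1 CPM (0.79 ± 0.25, adjusted p = 0.089). Extl3, which was above Ext2 per kilobase in muscle 3, had 269, 157 and 316 CPM against 150, 88.8 and 98.9 CPM. Muscle 2 was close to epithelium 1 there, and the difference of 1.13 ± 0.33 missed the threshold (adjusted p = 0.063) but passed without muscle 2 (0.012) or epithelium 1 (0.040). Extl2 had 76.2, 45.7 and 65.9 CPM against 35.9, 23.9 and 44.7 CPM (0.84 ± 0.30, adjusted p = 0.13).

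The next enzymes act inside the cell on the growing heparan sulfate chain. Of 4 Ndst genes, whose products replace acetyl groups by sulfate on glucosamine and so begin chain modification, none passed, and of the 11 genes for 2-O-, 3-O- and 6-O-sulfation 1 passed (9.09%, near the 10.7% of all tested genes). Ndst1 had 115, 80.9 and 133 CPM in muscle and 116, 93.1 and 86.8 CPM in epithelium, and the groups overlapped (0.15 ± 0.26, adjusted p = 0.90, edgeR). Ndst2 had 14.2, 14.2 and 30.2 CPM against 58.7, 25.5 and 36.5 CPM, and the groups overlapped. It was the 1 Ndst gene with an unadjusted p under 0.05 in edgeR and the 1 that passed with DESeq2 (adjusted p = 0.042) and with scaling by library size (0.045), and none passed with limma-voom. Ndst3 and Ndst4 did not exceed 9.89 CPM.

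Hs2st1 (chr3:144429706-144570181), the only 2-O-sulfotransferase of heparan sulfate, had 13.9, 20.0 and 24.6 CPM in muscle and 59.5, 77.9 and 28.5 CPM in epithelium. It was 2.83-fold higher in epithelium (SE 0.39 on the log2 scale, adjusted p = 0.039, edgeR). This call held in 1 of the 6 fits that left out a library, the one without epithelium 3 (0.012), and the others gave an adjusted p from 0.052 to 0.13. Hs6st2, a 6-O-sulfotransferase gene, had 52.9, 35.6 and 38.0 CPM in muscle and 30.6, 25.1 and 38.8 CPM in epithelium (0.42 ± 0.27, adjusted p = 0.48). Hs6st1 had 11.7 to 19.1 CPM in muscle and 22.2 to 30.2 CPM in epithelium without overlap (-0.62 ± 0.28, adjusted p = 0.25).

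The 3-O-sulfotransferases, which complete rare binding sites such as the one for antithrombin, had 0 of 7 genes called in the main edgeR fit. Of these, 1 (Hs3st1) had an unadjusted p under 0.05, and it passed with DESeq2 (adjusted p = 0.0043) while none passed with limma-voom. Hs3st1 had 13.5, 2.90 and 8.52 CPM in muscle and 1.78, 1.00 and 0.826 CPM in epithelium. All muscle libraries were higher, but they spread over a wide range, and the difference of 2.78 ± 0.85 did not pass (adjusted p = 0.074, edgeR). Without muscle 2 (0.019) and within the later date (0.028) it did. Hs3st3b1 was between 3.88 and 25.6 CPM in muscle and between 9.78 and 23.7 CPM in epithelium, highest in muscle 2 and epithelium 2. Its close relative Hs3st3a1 may share reads with it. Such sharing was not measured, so the split between them is uncertain. Hs3st2, Hs3st4 and Hs3st5 did not exceed 4.64 CPM. Hs3st6 had 5.19 and 2.82 CPM in epithelium 1 and 3 but 0.134 CPM in epithelium 2 and at most 0.699 CPM in muscle. It did not pass (adjusted p = 0.48, edgeR), but did within the later date (0.023). Hs6st3 had 0, 0.499 and 0.253 CPM in muscle and 1.12, 5.15 and 2.78 CPM in epithelium without overlap (adjusted p = 0.34).

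The extracellular sulfatases, which remove 6-O-sulfate from finished heparan sulfate chains at the cell surface, both differed by a large factor. Sulf1 (chr1:12692277-12861192) had 1397, 659 and 1033 CPM in muscle and 80.4, 121 and 35.1 CPM in epithelium. All muscle libraries stood far above all epithelial ones (log2 fold change 3.71 ± 0.50, adjusted p = 0.0020, edgeR), or 13.1-fold. Sulf2 (chr2:166073089-166155663) had 831, 332 and 619 CPM in muscle and 47.7, 64.2 and 28.7 CPM in epithelium (3.67 ± 0.44, adjusted p = 0.0012), or 12.7-fold. Per kilobase the pair stood at nearly equal levels in muscle, with 48.0% ± 2.4 (SD, n = 3) from Sulf1, and in epithelium, with 45.0% ± 5.5. Both calls held in all 14 alternative fits. Both were lowest in muscle 2, the library with the least smooth muscle marker RNA (a median of 27.7% of the muscle mean, against 129% and 140% in muscle 1 and 3). In RNA of sorted cells, fewer cells of a type and less RNA per cell cannot be told apart.

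Among chondroitin sulfate core proteins, the matrix proteoglycan versican and the membrane proteoglycan NG2 were higher in muscle. Vcan (chr13:89655312-89742509) had 435, 598 and 561 CPM in muscle and 98.1, 159 and 72.9 CPM in epithelium, with no overlap between groups (2.28 ± 0.33, adjusted p = 0.0030, edgeR). Cspg4, which encodes NG2 and marks mural cells such as pericytes, had 174, 292 and 286 CPM against 8.53, 35.0 and 8.45 CPM (3.87 ± 0.60, adjusted p = 0.0039). Both calls held in all 14 alternative fits.

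Aggrecan, the main proteoglycan of cartilage, was low. Acan had 2.96, 14.7 and 9.02 CPM in muscle and 0, 9.09 and 1.61 CPM in epithelium. The groups overlapped, each group’s highest value was in its library numbered 2, and the difference was 1.33 ± 1.52 (adjusted p = 0.82, edgeR). Bcan and Ncan, core proteins known from the nervous system, also were highest in muscle 2 (10.4 and 14.3 CPM) and epithelium 2 (5.21 and 15.7 CPM) and did not pass. In those libraries the 99th percentile of the receptor genes was 3.25 and 5.55 CPM.

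The link proteins bind hyaluronan and the large proteoglycans together, and each link protein gene lies next to a large proteoglycan gene with no protein-coding gene between them. Hapln3 lies 2 bases from Acan on chromosome 7, and Hapln4 lies 2222 bases from Ncan on chromosome 8. Hapln3 was the called link protein, with 14.5, 1.95 and 14.6 CPM in muscle and 0.632, 1.20 and 0.413 CPM in epithelium (3.80 ± 0.94, adjusted p = 0.033, edgeR). Muscle 2 stood apart from the other muscle libraries, near epithelium 2. The call was lost without muscle 1 (0.19), muscle 3 (0.20) or epithelium 3 (0.15), while without muscle 2 the adjusted p was 0.00335. It was also lost with limma-voom (0.16), DESeq2 size factors in edgeR (0.054), library size only (0.077), the replicate block (0.11) and the date term (0.070). It held with DESeq2 (0.00052), without the filter (0.024) and within the later date (0.0032). In muscle 2, epithelium 2 and epithelium 3, Hapln3 was below the 99th percentile of the receptor genes. Hapln1, 43.7 kb from Vcan, had 4.32 to 8.19 CPM in muscle and 7.42 to 11.6 CPM in epithelium (adjusted p = 0.60). Hapln2 and Hapln4 did not exceed 3.21 CPM.

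Of the hyaluronan synthases, Has2 (chr15:56665627-56694539), the main synthase of the embryo, was higher in muscle. It had 55.8, 47.6 and 69.8 CPM in muscle and 10.6, 9.82 and 2.10 CPM in epithelium (2.94 ± 0.54, adjusted p = 0.0083, edgeR), and the call held in all 14 alternative fits. 4.30% of its exonic bases are shared with the antisense gene Has2os. Has1 had between 1.63 and 2.82 CPM in all libraries, and Has3 had 1.80 CPM or less in muscle and 0.409 to 5.61 CPM in epithelium. Of 15 other genes of hyaluronan binding and turnover, 2 were higher in muscle, the hyaluronan receptor Cd44 (2.14 ± 0.47, adjusted p = 0.020) and Tnfaip6 (3.14 ± 0.66, adjusted p = 0.016), and none in epithelium. These 13.3% are near the 10.7% of all tested genes. Without epithelium 3 both calls were lost, at 0.088 and 0.067, and that of Tnfaip6 also without muscle 3 (0.073).

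The carbohydrate sulfotransferases held the largest difference of all 63 genes. Of 13 tested, 6 were called toward muscle and 1 toward epithelium (53.8%, against 10.7% of all tested genes). Chst3 (chr10:60181532-60219260), which adds sulfate at position 6 of N-acetylgalactosamine in chondroitin, had 86.9, 61.5 and 82.7 CPM in muscle and 2.83, 5.88 and 2.97 CPM in epithelium. The groups stood far apart, and the log2 fold change was 4.33 ± 0.37 (adjusted p = 0.00033, edgeR), or 20.1-fold. Chst7, another chondroitin 6-O-sulfotransferase, was higher in epithelium, with 1.48, 1.05 and 2.12 CPM in muscle and 12.3, 8.22 and 12.2 CPM in epithelium (-2.81 ± 0.60, adjusted p = 0.017). That call was lost without muscle 1 (0.070), epithelium 1 (0.074) or epithelium 3 (0.11).

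Of the 4-O-sulfotransferase genes for chondroitin and dermatan, Chst11, Chst12 and Chst14 were higher in muscle and Chst13 did not pass (adjusted p = 0.99, edgeR). Chst14, the dermatan 4-O-sulfotransferase and the most abundant of the family per kilobase, had 185, 108 and 172 CPM in muscle and 49.0, 52.2 and 42.5 CPM in epithelium (1.69 ± 0.27, adjusted p = 0.0046, edgeR). The chondroitin 4-O-sulfotransferase gene Chst12 had 64.6, 55.7 and 79.0 CPM against 32.3, 22.6 and 30.3 CPM (1.23 ± 0.25, adjusted p = 0.014), lost without muscle 3 (0.059) or epithelium 3 (0.072). Chst11, another chondroitin 4-O-sulfotransferase gene, had 14.8, 15.9 and 25.9 CPM against 5.71, 9.29 and 6.69 CPM (1.39 ± 0.37, adjusted p = 0.045). Its call was lost without muscle 1 (0.077), muscle 3 (0.30), epithelium 1 (0.12) or epithelium 3 (0.21). Chst15, which adds a further sulfate to 4-O-sulfated units, had 29.2 to 45.1 CPM in muscle and 21.1 to 23.8 CPM in epithelium without overlap, and did not pass (0.79 ± 0.25, adjusted p = 0.080), though it did without muscle 2 (0.031). Chst13 did not exceed 1.40 CPM.

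Among the sulfotransferases that act on galactose or N-acetylglucosamine of keratan sulfate and other glycans, Chst2 had 22.7, 32.3 and 33.4 CPM in muscle and 2.19, 6.35 and 5.90 CPM in epithelium (2.62 ± 0.44, adjusted p = 0.0055, edgeR). Chst1 had 11.1, 11.3 and 10.1 CPM against 1.34, 1.87 and 3.08 CPM (2.37 ± 0.58, adjusted p = 0.031). Of the 6 fits that left out a library, 1 kept the call (without epithelium 2, 0.042), and the others reached 0.16. Chst5 had 1.37, 6.39 and 1.37 CPM in muscle and 17.4, 10.8 and 18.6 CPM in epithelium. Despite no overlap the difference of -2.37 ± 0.68 did not pass (adjusted p = 0.061), whereas without muscle 2 it did (0.0020). It also passed with DESeq2 (0.011), limma-voom (0.014), no filter (0.048), the header date as a term (0.042) and the later date only (0.0024). It did not with DESeq2 size factors in edgeR (0.088), library size only (0.105), the replicate block (0.077) or any other library left out (0.066 to 0.22). Chst4 did not pass. Outside this group, Chst8 and Chst10 did not pass either.

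**Figure D3:**
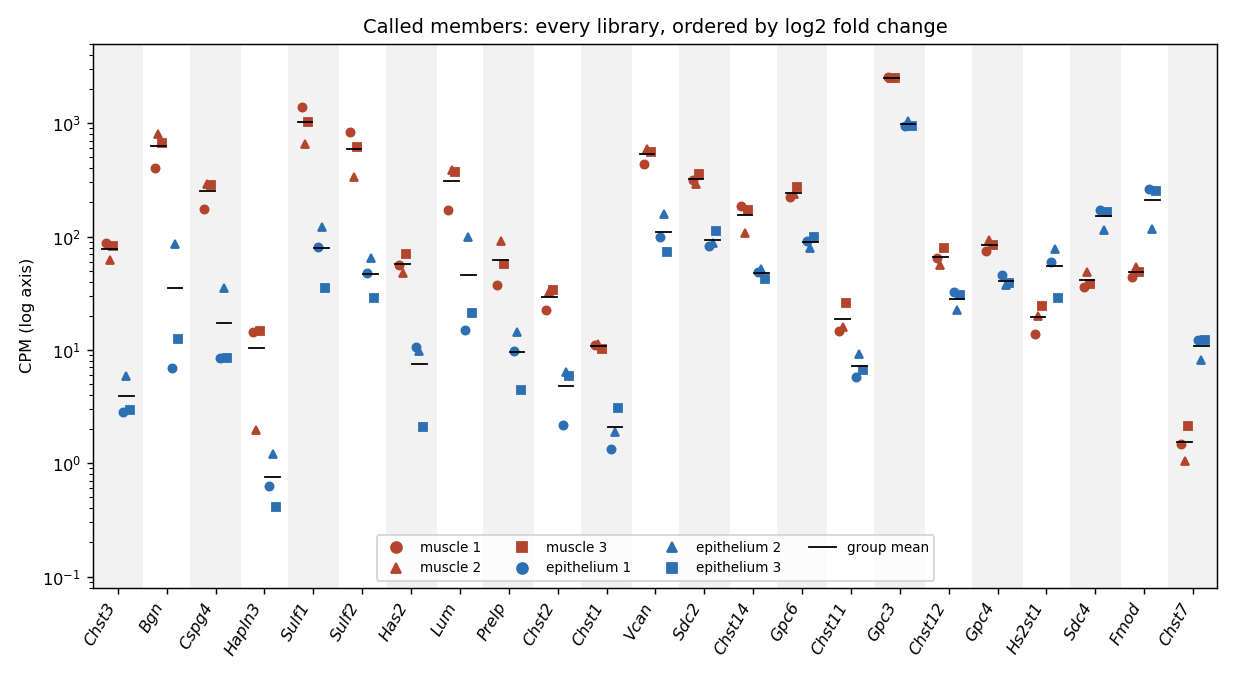
CPM on a log axis (y) of the 23 called genes (x, ordered by log2 fold change) in every library, with muscle in red, epithelium in blue, replicates 1 to 3 as circle, triangle and square, and bars at the group means. The 19 genes from Chst3 to Gpc4 are higher in every muscle library than in any epithelial one, Hs2st1, Sdc4, Fmod and Chst7 are lower, and for Bgn, Cspg4 and Lum the triangle of epithelium 2 stands above the other epithelial libraries.

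The small leucine-rich proteoglycans organise collagen fibrils. Of the 6 genes, 3 were higher in muscle, 1 in epithelium and 2 missed the threshold. The called share was 66.7%, against 10.7% of all tested genes. In all 6 the groups did not overlap, where 26.9% of all tested genes showed no overlap. Fibromodulin was the exception in direction. Fmod (chr1:134037254-134048277), a keratan sulfate proteoglycan of tendon and cartilage, had 43.9, 54.3 and 48.8 CPM in muscle and 264, 117 and 253 CPM in epithelium (-2.11 ± 0.34, adjusted p = 0.0045, edgeR), and the call held in all 14 alternative fits. Prelp, the next protein-coding gene on chromosome 1 at a distance of 116 kb, went the other way with 37.1, 90.7 and 57.8 CPM in muscle and 9.85, 14.4 and 4.43 CPM in epithelium (2.70 ± 0.48, adjusted p = 0.0074). It too kept its call in all 14.

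Biglycan, lumican, decorin and osteoglycin were high in muscle and uneven among the epithelial libraries. Bgn had 399, 807 and 669 CPM in muscle and 6.91, 85.4 and 12.4 CPM in epithelium (4.17 ± 0.90, adjusted p = 0.020, edgeR). Lum had 171, 390 and 370 CPM against 15.1, 100 and 21.0 CPM (2.78 ± 0.71, adjusted p = 0.039). Dcn, which lies 47.0 kb from Lum on chromosome 10, had 184, 503 and 441 CPM against 39.9, 172 and 31.1 CPM, so that muscle 1 and epithelium 2 nearly met (2.22 ± 0.67, adjusted p = 0.075). Ogn had 66.9, 190 and 141 CPM against 2.49, 41.6 and 4.84 CPM (3.05 ± 0.96, adjusted p = 0.086). In all 4 genes epithelium 2 was the highest epithelial library. Without it, the adjusted p was 0.00018 for Bgn, 0.00084 for Lum, 0.0035 for Dcn and 0.00088 for Ogn. With the header date as a term, Dcn (0.014) and Ogn (0.013) also passed. Leaving out other libraries went the other way: the call of Bgn was lost without muscle 1, 2 or 3 or epithelium 3 (up to 0.10), and that of Lum in every fit but the one without epithelium 2 (up to 0.17).

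The smooth muscle markers were also highest in epithelium 2 among the epithelial libraries, though at a smaller share of their muscle level than these 4 genes. In epithelium 2, Dcn reached 45.8% of its muscle mean, Lum 32.2%, Ogn 31.4% and Bgn 13.7%, while the smooth muscle markers reached a median of 1.97%. In epithelium 1 and 3 the 4 genes lay between 1.11% and 10.6%, and the smooth muscle markers at 1.49% and 0.599%. The epithelial markers stood at 80.8% of their mean in epithelium 2, and the cartilage markers had their highest epithelial sum there (737 CPM). In muscle, all 6 small leucine-rich genes were highest in muscle 2, the library with the least smooth muscle marker RNA, where 41.3% of all tested genes were. The part of other mesenchymal cells in these values was not tested.

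**Figure D4:**
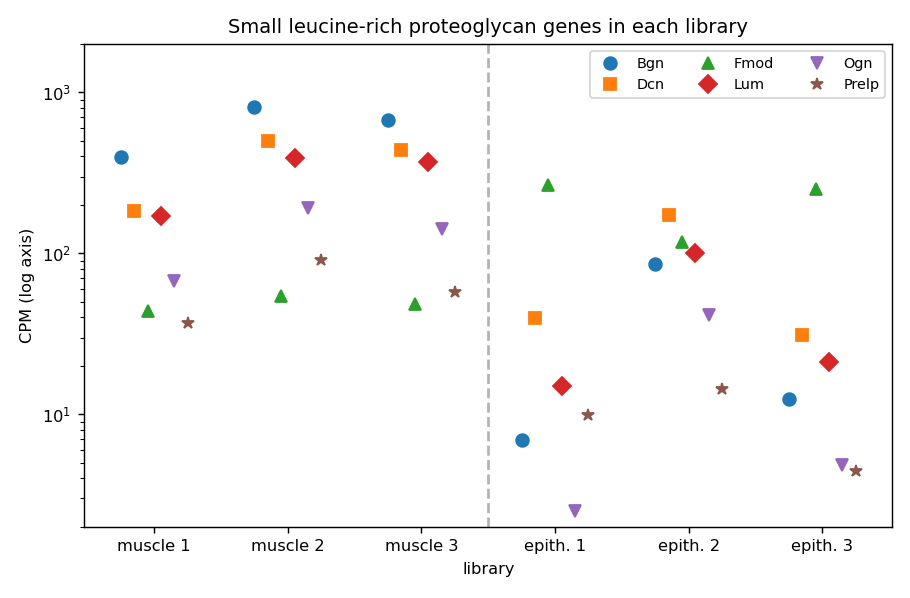
CPM on a log axis (y) of the 6 small leucine-rich proteoglycan genes in each of the 6 libraries (x). Bgn, Dcn, Lum and Ogn are highest in muscle and, among the epithelial libraries, in epithelium 2, whereas Fmod is at 264 and 253 CPM in epithelium 1 and 3 and at 117 CPM in epithelium 2.

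Other genes that supply, build and break down the chains were read from lists. Of 92 such genes, 25 were called toward muscle and 1 toward epithelium (28.3%, against 10.7% of all tested genes). Of 7 genes of the linker that joins chain and core protein, 1 passed, the xylosyltransferase Xylt2 (1.38 ± 0.34, adjusted p = 0.033, edgeR). This share of 14.3% is near the 10.7% of all tested genes. Of 6 chondroitin polymerisation genes, 3 were higher in muscle, Csgalnact1 (1.94 ± 0.48, adjusted p = 0.033), Chsy1 (1.27 ± 0.27, adjusted p = 0.019) and Chpf2 (1.04 ± 0.23, adjusted p = 0.019). Without epithelium 3 none of these 4 passed (adjusted p from 0.093 to 0.15), and without muscle 3 none did either (0.066 to 0.11).

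Both dermatan sulfate epimerase genes were higher in muscle, the enzymes that act together with the product of Chst14. Dse had 239, 187 and 190 CPM in muscle and 29.1, 46.9 and 24.8 CPM in epithelium (2.61 ± 0.31, adjusted p = 0.0011, edgeR), and all 14 alternatives called it. Dsel differed by 1.40 ± 0.25 (adjusted p = 0.0082; 0.0535 without epithelium 3). Of 15 genes that supply sulfate donor and sugar nucleotides, 3 were higher in muscle (20.0%, against 10.7% of all tested genes). Papss2, which makes the sulfate donor and is known from cartilage, had 30.7, 67.2 and 39.3 CPM against 2.79, 12.1 and 4.28 CPM (2.86 ± 0.56, adjusted p = 0.012). Without epithelium 3 the adjusted p was 0.069 for Papss2. Ugp2 (1.13 ± 0.28, adjusted p = 0.034) and Ugdh (0.83 ± 0.21, adjusted p = 0.039), enzymes on the way to UDP-glucuronic acid, also passed. The call of Ugp2 was lost without muscle 1 (0.091), muscle 3 (0.14), epithelium 1 (0.12) or epithelium 3 (0.15). That of Ugdh held in 1 of the 6 fits that left out a library, without muscle 2 (0.043), and the others gave 0.10 to 0.28.

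Of 22 other core protein genes tested, 5 were called, each toward muscle (22.7%, against 10.7% of all tested genes). The 3 with the largest change were Nrp1, a semaphorin and VEGF receptor that can carry a chain (4.21 ± 0.55, adjusted p = 0.0017, edgeR), the cartilage collagen gene Col9a2 (2.77 ± 0.61, adjusted p = 0.020) and the TGF-beta co-receptor Tgfbr3 (2.52 ± 0.44, adjusted p = 0.0071). Col9a2, which is also among the cartilage markers, lost its call without muscle 2 (0.060), muscle 3 (0.057), epithelium 1 (0.059) or epithelium 3 (0.070).

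Breakdown genes differed too. Of 7 ADAMTS genes whose products cut versican and aggrecan, 6 were higher in muscle (85.7%, against 10.7% of all tested genes). The largest changes were in Adamts5 (3.91 ± 0.90, adjusted p = 0.025, edgeR), Adamts8 (3.59 ± 0.68, adjusted p = 0.010) and Adamts15 (3.48 ± 0.74, adjusted p = 0.019). 2 of the 6 passed without epithelium 3, 2 without muscle 3 and 3 without muscle 1. Library-size scaling left 2. Without epithelium 3 the adjusted p was 0.14 for Adamts5 and 0.066 for Adamts15, and without muscle 3 it was 0.145 for Adamts8. Adamts5 and Adamts15 also lost their calls without muscle 1 (0.098 and 0.074), muscle 2 (0.0515 and 0.0511) or muscle 3 (0.106 and 0.068). Of 16 lysosomal and extracellular breakdown genes, 3 were called toward muscle and 1 toward epithelium. These are 4 of 16, beside 10.7% of all tested genes. The 2 heparanase genes had opposite directions. Hpse, the active heparanase that cuts heparan sulfate, had 2.32, 5.59 and 3.67 CPM in muscle and 19.6, 16.7 and 22.7 CPM in epithelium (-2.35 ± 0.41, adjusted p = 0.0072), and all 14 alternatives called it. Hpse2, whose product lacks that activity, had 54.8, 13.7 and 47.7 CPM against 0.223, 3.01 and 0.789 CPM (4.97 ± 0.93, adjusted p = 0.010; 0.074 without epithelium 3). The lysosomal sulfatase gene Arsb (2.46 ± 0.29, adjusted p = 0.0011) and the hexosaminidase gene Hexa (1.33 ± 0.27, adjusted p = 0.014) were higher in muscle. The call of Hexa was lost without muscle 1 (0.054) or epithelium 3 (0.089).

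The promoters of genes that differed were looked at for short motifs. RefSeq promoter sequences (GRCm38.p6) were matched by symbol for 49 of the 64 genes, 18 of them called, and the 250 bases before the start were searched on both strands for TATAAA, the GC box GGGCGG, the TEAD-type motif CATTCC, the E-box CACGTG and the CArG box. The GC box was in 67.3% of the 49 genes and in 14 of the 18 called ones, against 53.2% of the 14182 tested genes with a promoter sequence and 32.7% of all 32851 promoters. TATAAA was in 12.2% of the 49 against 10.5% of tested genes, CATTCC in 18.4% against 13.4%, and CACGTG in 8.16% against 8.66%. The CArG box, bound by serum response factor in smooth muscle genes, was in none of the 49 and in 1.49% of tested genes. A match describes letters and not a site in use, and a motif that is absent says only that those letters are not in this window.

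The 250 bases are printed for the gene with the largest difference, for 1 of the extracellular sulfatases, for versican and for the small leucine-rich gene with the opposite direction, each 5′ to 3′ on the gene’s own strand, with matches to the motifs on either strand in capitals. Chst3 lies on the minus strand (chr10:60219261-60219510), as do Sulf2 (chr2:166155684-166155933, 1 of 2 starts in the table) and Vcan (chr13:89742513-89742762), and Fmod lies on the plus strand (chr1:134037004-134037253).
Chst3: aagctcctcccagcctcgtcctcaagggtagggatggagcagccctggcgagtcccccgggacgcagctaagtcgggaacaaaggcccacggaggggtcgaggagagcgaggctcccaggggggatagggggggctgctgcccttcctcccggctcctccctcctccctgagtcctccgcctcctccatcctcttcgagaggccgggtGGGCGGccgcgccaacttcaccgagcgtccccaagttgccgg
Sulf2: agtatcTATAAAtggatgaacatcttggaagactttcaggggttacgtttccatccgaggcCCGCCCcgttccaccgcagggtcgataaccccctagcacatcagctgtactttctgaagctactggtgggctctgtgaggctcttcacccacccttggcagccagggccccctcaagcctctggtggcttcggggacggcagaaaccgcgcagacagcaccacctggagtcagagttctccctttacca
Vcan: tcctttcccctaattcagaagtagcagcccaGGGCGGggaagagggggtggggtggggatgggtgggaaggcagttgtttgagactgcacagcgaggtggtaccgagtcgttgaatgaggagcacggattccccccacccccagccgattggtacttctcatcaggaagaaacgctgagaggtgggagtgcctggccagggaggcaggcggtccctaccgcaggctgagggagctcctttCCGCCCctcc
Fmod: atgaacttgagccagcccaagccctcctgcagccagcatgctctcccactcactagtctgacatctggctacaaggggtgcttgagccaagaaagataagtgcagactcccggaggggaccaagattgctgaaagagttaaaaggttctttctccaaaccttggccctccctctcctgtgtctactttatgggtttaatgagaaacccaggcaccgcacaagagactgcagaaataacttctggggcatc
Chst3 holds a GC box that begins 42 bases before the start. Sulf2 holds a GC box at 189 bases and TATAAA at 244 bases, and Vcan holds a GC box at 219 and at 10 bases. Fmod holds none of the 5 motifs, and its GC content of 51.2% was the lowest of the 4, beside 69.6% in Chst3.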

How the data were processed

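RNA of sorted tracheal cells was measured in 6 libraries. Per the labels' protocols, tissue was dissociated with TrypLE for 15 min, stained for Epcam and sorted, RNA was extracted with Trizol, and libraries were made with the SMART-Seq v4 and Nextera XT kits, which in standard use keep no strand and carry no molecular identifiers, so counting intervals would cover counting error only. The authors deposited whole-number counts per gene symbol. Trim Galore, Bowtie2, Cufflinks, DESeq and mm10 are named in the submitters' processing notes without role or version. The counting program and annotation are not given in the sources used here. In each library, 73.8% to 79.6% of the counts from 1 to 19 were even numbers, for which no source gives a reason.

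Counts were analysed in R 4.3.3: filterByExpr by group, TMM scaling and edgeR 4.0.16 (two-sided robust quasi-likelihood test, no covariate) over the whole table, with Benjamini-Hochberg adjustment over 19375 genes. Log2 fold changes give muscle relative to epithelium, with SE from the test statistic. CPM used TMM-scaled library sizes, and levels of different genes were compared only per kilobase of merged exons (GENCODE M21, GRCm38). With 3 libraries against 3 exact permutation cannot give a p below 0.10, so p-values come from the fit across genes. On counts simulated for this comparison (19375 genes), the test called 100 of 100 genes changed by a log2 of 3, 74 of 100 changed by 1.5 and 11 of 19175 unchanged ones. The changed genes were drawn only from those of higher level. Their spread was that of the trend over level, with no effect of date or single library. The simulated counts therefore do not give the power for low genes or for genes uneven between libraries. Alternatives were DESeq2 1.42.0 (size factors and Wald test), limma-voom (limma 3.58.1), library size only, no filter, the header date as a term or restricted to the later date, the replicate number as a block, a threshold of 0.01 and leaving out each library. Leaving out a library for the family shares was added after seeing the data. The genes and lists were chosen with earlier results of these data known. Values in every library are given for genes that passed, for genes averaging 5 or more in log2 CPM and for the highest of a family. Of each pathway list up to 3 genes per direction are named. 5 list members were matched through RefSeq synonyms.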

Additional observations from a re-analysis of the deposited data

How the results depend on the processing

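Of the 23 called genes, 13 (Gpc6, Sdc2, Sdc4, Chst2, Chst3, Chst14, Has2, Sulf1, Sulf2, Cspg4, Vcan, Fmod and Prelp) kept their call in all 14 alternative fits, and none of the 23 changed direction in any. The other 10 lost it in 53 of the 322 fits counted over all 23, 35 of them without a library. Of the 40 genes not called, 44 fits gave a call. The cause of each change below was not tested. A stricter threshold by itself can only leave fewer calls. Leaving out a library gave fewer or more calls of all genes than the main 2071, from 1169 to 2573. The header identifiers name the same sample code and date in muscle and epithelium for the libraries numbered 1 and 2. Those numbered 3 share the reading of the day but not the code, and no source says what a number shares. Deviations from the group mean correlated at 0.58 (libraries numbered 1), 0.74 (2) and -0.59 (3) over 19375 genes. Over the 4123 genes averaging 6 or more in log2 CPM, the correlations were weak, at 0.17, 0.15 and -0.17. These values do not settle whether the numbers pair the libraries, and they were not taken to pair them in the main test. The replicate block gave 26 called genes of the 63 (23 in muscle, 3 in epithelium) and 2418 of all genes. Of the 26, 20 were among the 23, and the added ones were Gpc2, Ext2, Extl2, Extl3, Dcn and Ogn.

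All genes: DESeq2 gave 3549 calls, the header date as a term 3178, a threshold of 0.01 gave 983, and leaving out a library 1169 to 2573. Genes described here: the threshold of 0.01 gave 14 (12 in muscle, 2 in epithelium) and leaving out a library 14 to 24, with 11 to 21 in muscle and 2 to 4 in epithelium. DESeq2 gave 7 in epithelium. Linker genes: library size, the replicate block, the header date as a term and the later date gave 2 each, DESeq2 3, the threshold of 0.01 gave 0, leaving out a library 0 to 2. At 0.01 the chondroitin polymerisation, sulfate supply and hyaluronan genes were each 0, other core proteins 2 and ADAMTS 1. Library size gave 0 for sulfate supply, 1 for hyaluronan, 7 for breakdown and 2 for ADAMTS. DESeq2 gave 5 for sulfate supply and 7 for breakdown, and the date term 6 for sulfate supply. Without a library the ranges were 0 to 3 (polymerisation), 1 to 3 (epimerases), 0 to 3 (sulfate supply), 2 to 5 (core proteins), 0 to 2 (hyaluronan) and 2 to 6 (ADAMTS).

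Without division by length the shares were 84.4% and 76.4% for Gpc3 in muscle and epithelium, 38.6% and 49.0% for Sdc1, 6.03% and 28.3% for Sdc4, and 63.9% and 61.1% for Sulf1, so the order of genes within a family depends on the exon lengths used. None of the 15 genes under an average log2 CPM of 2 passed in the main fit, and whether greater depth would change this was not tested.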
